A study of Mus musculus with 9 samples.

Results

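The data described here are the 3 control libraries, of 9 libraries in the whole series, from mouse sciatic nerve at about 2 weeks of age. They were chosen by their labels, and the other 6 libraries, from PINCH1 and PINCH2 mutants, were not used. The mice were C57BL/6 control littermates of those mutants. One label field gives their age as postnatal day 15, while the protocol gives postnatal day 14. Each library was made from total RNA of 4 pooled nerves, taken from 1 male and 1 female, with the outer connective sheath (epineurium) stripped off before freezing. Variation between single animals is therefore averaged within a pool. The sources used here do not state which alleles or Cre transgenes the control littermates carried. No treatment is named.

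The sciatic nerve is a mixed peripheral nerve that carries motor and sensory axons. Schwann cells wrap the larger axons in compact myelin, a stack of membranes held together by proteins such as myelin basic protein, and they bundle the small axons without myelin. In the first weeks after birth these cells make large amounts of cholesterol, glycolipid and myelin protein, and they build a basal lamina that they grip through integrins. Fibroblasts, perineurial cells, vessels and resident macrophages lie around and among them. The cell bodies of the neurons lie outside the nerve, in the spinal cord and the dorsal root ganglia.

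Each row of the table is a gene entry, with a chromosome, a start, an end, a strand and a whole-number read count per library. The libraries held 1044722, 1038404 and 1101017 counts (control 1, 2 and 3), so 1 count was close to 1 CPM (count per 1000000 of the library total). Of 25965 entries, 7978 had at least 1 count in each library, 12437 (47.9%) had none in any, and 5099 (19.64%) had more than 3 counts in each. A count of 0 allows up to 3 counts, here 2.725 to 2.889 CPM, and 3 counts is used below as the floor of detection. This limit covers counting error only. The 3 libraries correlated with Pearson's r of 0.9238 to 0.9284 between pairs, across entries on the log2(CPM + 1) scale, where entries are not independent replicates. No 2 libraries agreed within sampling noise (mean chi-square per entry 7.029 to 9.365), and the places where 1 library stands apart are named with the genes concerned. The sources used here do not give the strand on which reads were counted. For that reason each entry was checked for a partner, meaning another entry on the same chromosome and the opposite strand whose span overlaps it by at least 1 bp. On bases that an entry shares with its partner, counts of the entry and transcription of the partner cannot be told apart. How much exon a pair shares varied widely, as given below for the 20 highest entries. The source of the counts on bases that are not shared was not tested.

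The 3 genes given as markers of this tissue were all among the more highly counted entries. Pmp22, which encodes a membrane protein of compact peripheral myelin (chromosome 11, 63128982 to 63159547, plus strand, GRCm38), had 4672, 4570 and 5332 counts, or 4571.9 ± 237.3 CPM (SD, n = 3 libraries, as for all values below). It ranked 21 by reads. Mbp, the gene of myelin basic protein, which zips together the inner faces of the myelin membrane, had 2393, 3645 and 3548 counts, or 3007.7 ± 637.5 CPM, and ranked 41. Control 1 lay below the other libraries for Mbp, while control 1 and control 2 were nearly level for Pmp22. Prx, the gene of periaxin, a scaffold of the outermost Schwann cell membrane (chromosome 7, 27499324 to 27520214, plus strand), had 484, 623 and 823 counts, or 603.6 ± 142.1 CPM, and ranked 288. Prx alone of the 3 markers had a partner, Gm15541, and the partner held 5821, 4819 and 11426 counts. The counts under the name Prx were thus lower than those of its partner in every library, at 0.08746 of them by mean count.

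Compact myelin genes formed the highest of the cell type and pathway lists apart from the mitochondrial genome. The 10 members summed to 13675.4, 16593.7 and 17108.7 CPM, or 15792.6 ± 1851.6 CPM. All had at least 1 count in some library, 9 exceeded the floor in each library, and none had a partner. Numbers of members above the floor, here and in the lists below, are to be read against the 19.64% of all entries. Mal, a lipid raft protein of myelin, had 580, 791 and 725 counts. Cd9, a tetraspanin, had 198, 203 and 255. Both lay far below Pmp22 and Mbp by reads.

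Read number also depends on transcript length, so the same genes were set per kilobase of annotated exon. On that scale Pmp22 stood at 1942.2 CPM per kb and ranked 33 of all entries, above Mbp at 355.1 (rank 196). Mbp has 8.469 kb of joined exon in the annotation, against 2.354 kb for Pmp22. Which transcripts of each gene were counted was not tested, so their order per kilobase can depend on that length. Prx stood at 108.2 CPM per kb (rank 507). Of the rest of the list, Pmp2, a lipid-binding protein of peripheral myelin, varied between pools, with 86, 227 and 165 counts. Cldn11, a tight junction protein of central myelin, had 0, 7 and 0 counts and was the only member not above the floor in each library.

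**Figure D1:**
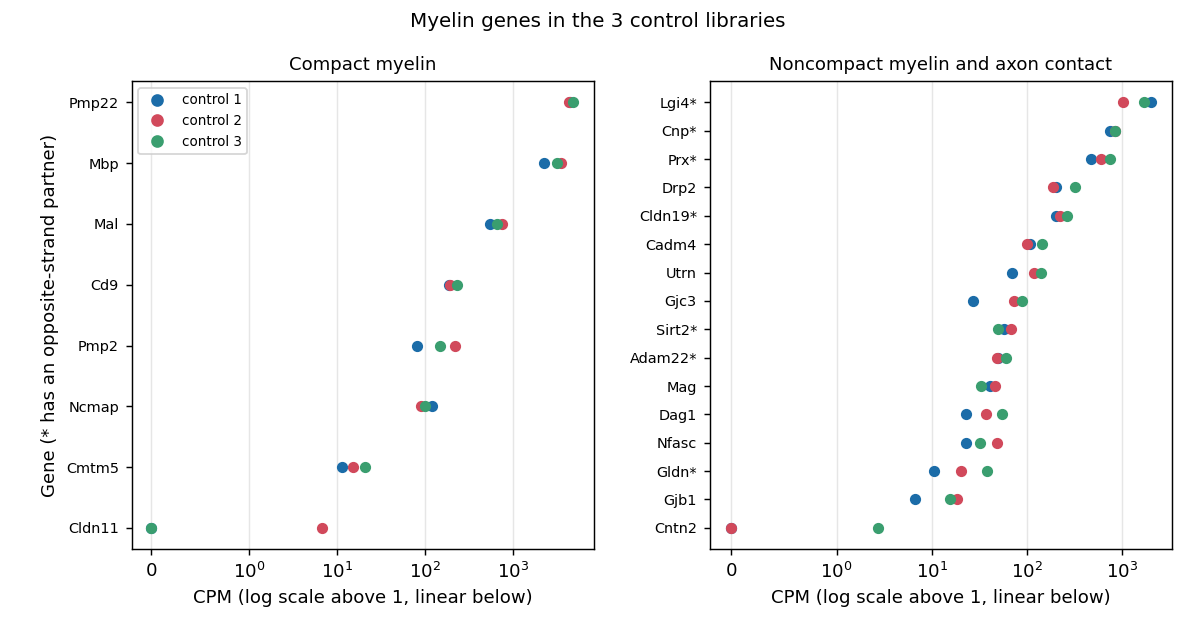
Level of myelin genes in CPM (horizontal axis, logarithmic above 1 CPM and linear below) in control 1, 2 and 3, for 8 of the 10 genes of the compact list (left) and the noncompact list (right); 1 point is 1 library, points at the same value cover each other, and a star marks genes with an opposite-strand partner. Pmp22 and Mbp stand above the other compact genes shown in all 3 libraries, and Cldn11 and Cntn2 include libraries at 0.

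Genes of noncompact myelin and of the contact between Schwann cell and axon summed to 4022.1, 3433.2 and 4495.8 CPM. Of 16 members, 15 exceeded the floor in each library and Cntn2, an adhesion molecule beside the nodes, did not, with 0, 0 and 3 counts. Most of the sum came from members with a partner: the 9 members without one summed to 649.5 CPM of 3983.7 ± 532.4. Lgi4, a protein secreted by Schwann cells that acts in axon sorting, had 2084, 1047 and 1856 counts and lies over Fxyd3, which had 12214, 10983 and 14141. Cnp, an enzyme of the myelin cytoplasm, had 779, 873 and 918 counts and was higher than its partner Dnajc7, at 759, 386 and 554, in each library. Among members without a partner, Drp2, which binds periaxin at membrane appositions, led with 211, 194 and 348 counts. Cldn19, a claudin of Schwann cell tight junctions, had 210, 232 and 285 counts, while Gm12927 over it had 1666, 1713 and 1922.

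Transcription factors of the myelin program were counted at low to moderate levels. Of 10 members, 8 exceeded the floor in each library and Nfatc4 had no count in any. The list summed to 653.2 ± 39.27 CPM, with a narrow spread between pools, but members without a partner gave only 165.2 CPM of it. Zeb2, a repressor of differentiation inhibitors, had 229, 297 and 296 counts, against 145, 143 and 309 for Gm13476 within it. Nab2, a coregulator of Egr2, had 207, 198 and 246 counts under Gm16229 at 537, 886 and 1167. Sox10, the factor that keeps Schwann cell identity, had 32, 55 and 55 counts and no partner. Egr2, the master factor of peripheral myelination, had 53, 17 and 40 counts, and its spread of 50.05% of the mean exceeded that of the larger members.

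Genes of lipid synthesis were counted in each library. Cholesterol genes summed to 1539.6 ± 133.8 CPM, with 15 of 19 members above the floor in each library and none at 0 in all. Members without a partner gave 722.6 CPM of that sum. Fdft1, the squalene synthase gene, led with 806, 812 and 746 counts and overlaps Ctsb, which had 67, 71 and 93. Hmgcs1, at the start of the pathway, had 253, 307 and 370 counts, and Sqle, a rate-setting monooxygenase, 119, 141 and 130. Neither has a partner, and the pools differed little for Sqle.

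Fatty acid and myelin lipid genes summed to 1462.9 ± 268.8 CPM, and 13 of 16 exceeded the floor in each library. Here most counts came from members without a partner, which gave 1256.6 CPM. Scd2, a stearoyl-CoA desaturase, led with 555, 642 and 703 counts. Ugt8a, which makes the myelin lipid galactocerebroside, had 112, 234 and 230 counts, lowest in control 1. Cers2, the synthase of very long chain ceramides (listed in the table as Lass2), had 116, 137 and 140 counts, close to those of its partner Setdb1 at 147, 166 and 146.

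Genes of immature, repair and nonmyelinating Schwann cells had low sums. Of 14 immature and repair markers, 3 exceeded the floor in each library, and Gap43, Pax3 and Olig1 had no count in any; among all entries 19.64% exceeded it and 47.9% had no count. The sum was 17.23, 57.78 and 72.66 CPM. Ngfr, the low-affinity neurotrophin receptor, had 0, 12 and 18 counts, and Ncam1, an adhesion molecule of immature and nonmyelinating cells, had 5, 8 and 11 under Gm11149 at 301, 335 and 411. The nonmyelinating list summed to 37.33, 116.5 and 150.8 CPM, with 3 of 7 members above the floor in each library. Scn7a, a sodium channel of nonmyelinating Schwann cells, gave 62.32% of it, with 25, 61 and 118 counts. Control 1 held the lowest sum in both lists, which share Ngfr, Ncam1 and L1cam. A low level of most members was not detectable in these counts.

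The basal lamina and its receptors were detected almost in full. Of 17 members, 16 exceeded the floor in each library, against 19.64% of all entries. The sum was 860.5, 1212.4 and 1323.3 CPM, and members without a partner gave 860.2 CPM of the mean of 1132.1 ± 241.6. Itga6, the laminin-binding integrin chain of Schwann cells, led with 169, 208 and 213 counts, and Itgb1, the beta chain it pairs with before myelination, had 79, 146 and 161. Lamb1 and Lamc1, chains of the Schwann cell laminins, had 91, 135 and 186 and 103, 107 and 120 counts. Col4a1 and Col4a2, the collagen IV chains, are divergent neighbours whose spans overlap at their starts. Col4a1 had 117, 133 and 170 counts, and Col4a2 had 72, 66 and 106. Nid2, a linker of laminin and collagen IV, had 20, 67 and 47 counts under 2700060E02Rik at 4235, 6068 and 4802.

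The integrin-linked kinase complex, in which the 2 PINCH proteins act, was counted at low levels. Its 11 members summed to 302.5, 310.1 and 396.0 CPM, 6 exceeded the floor in each library, and Parvb and Parvg, which encode parvins, had no count in any. Among all entries 19.64% exceeded the floor and 47.9% had no count. Ilk, the kinase-like scaffold, gave 47.99% of the mean sum, with 152, 161 and 202 counts, and Vcl, encoding vinculin, had 48, 40 and 57. Both overlap a highly counted entry: Taf10 for Ilk, and Ap3m1, with 4684, 5422 and 4723 counts, for Vcl. Without members that have a partner the list summed to 45.89 CPM. Parva, which joins the complex to actin, had 24, 34 and 50 counts and Tln1, the integrin activator talin, 43, 46 and 55. Lims1 (PINCH1) had 3, 7 and 7 counts and Lims2 (PINCH2) had 9, 1 and 5. Gpr17, which lies within Lims2 on the opposite strand, had 321, 211 and 380. Both PINCH entries were at or near the floor, so a level below theirs was not detectable in these counts. The counted strand is not stated, and whether these low counts mean low expression was not tested.

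Of the other cell types of nerve, fibroblasts were the best covered. Endoneurial fibroblast genes summed to 764.8, 1523.5 and 1208.0 CPM, 10 of 13 exceeded the floor in each library, and members without a partner gave 1138.1 CPM. The collagen genes led: Col3a1 had 265, 602 and 494 counts, Col1a2 184, 358 and 331, and Col1a1 136, 326 and 191. Control 1 was the lowest library for all 3. Dcn, the matrix proteoglycan decorin, followed the same order, with 40, 101 and 74 counts. Apod, a lipid carrier also made by other nerve cells, did not, at 104, 49 and 101 counts. The sum in control 1 was 0.56 of the mean of the other libraries when scaled to library totals, 0.6526 with TMM scaling and 0.6427 with RLE scaling. In a pooled nerve, fewer cells of a type and less RNA per cell cannot be told apart. Remains of epineurium, which is rich in fibroblasts, were not tested.

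Vessel and perineurial genes had low sums, and their shares above the floor are to be read against the 19.64% of all entries. Perineurial genes summed to 69.97 ± 12.81 CPM with 3 of 8 members above the floor in each library, led by Itgb4, at 25, 32 and 35 counts, and Tjp1, at 22, 13 and 28. Itgb4 gave 41.22% of that sum and is also a member of the basal lamina list, so its counts cannot be assigned to perineurial cells. Lypd2 had no count in any library. Endothelial genes summed to 42.39 ± 6.453 CPM with 3 of 12 above the floor, and Tie1 had none. Endothelial members without a partner gave 21.98 CPM. Their leading member, the secreted factor Egfl7, had 8, 14 and 12 counts, while Pecam1 had 3, 1 and 5 and Cdh5, the vascular cadherin, 3, 1 and 7. Pericyte and smooth muscle genes summed to 114.7 ± 5.242 CPM, of which 65.3% was Tagln, with 90, 74 and 74 counts. Tagln overlaps Pcsk7, and without members that have a partner the list summed to 39.49 CPM. The remaining vessel markers were too low to tell the pools apart.

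Macrophage genes gave a sum that rested on a single entry. The list reached 619.3, 785.8 and 606.7 CPM, but Csf1r, the colony-stimulating factor receptor, gave 89.47% of the mean. The floor was exceeded in each library by 2 of 13 members, against 19.64% of all entries. Csf1r had 607, 699 and 601 counts and its span overlaps the end of Hmgxb3, which had 6, 8 and 11. Cd163, a scavenger receptor without a partner, had 24, 95 and 42 counts. By contrast Adgre1 (listed as Emr1), which encodes F4/80, and Aif1 had no count in any library, and Lyz2 had 1, 3 and 6. Without Csf1r and the other partnered member, the list summed to 65.33 CPM. The high level of Csf1r was therefore not shared by the other macrophage markers.

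Neuronal genes showed the same form. They summed to 139.9 ± 41.53 CPM, 1 of 15 members exceeded the floor in each library, and 7 had no count in any: Snap25, Chat, Scn10a, Calca, Tac1, Th and Isl1. Among all entries 19.64% exceeded the floor and 47.9% had no count, so the 7 say nothing particular about neuronal genes. Nefm, the medium neurofilament chain, gave 90.52% of the sum, with 162, 92 and 150 counts. It overlaps Nefl, the light chain, which had 1, 5 and 0. Nefh, the heavy chain, had 20, 0 and 5 counts. Without partnered members the list stood at 9.48 CPM.

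Markers of cell types that make up little of the nerve, or lie outside it, were at or near 0. Neutrophil genes (S100a8, S100a9, Ly6g, Mpo and Elane) had no count in any library, which allows up to 3 counts for each. Mast cell genes had a single count, of Kit in control 3, and Cma1, Mcpt4, Cpa3, Tpsb2 and Fcer1a had none. Among lymphocyte genes only Cd79a was counted, at 2, 4 and 3. Of adipocyte genes only Fabp4 was counted, at 1, 3 and 5. Skeletal muscle genes summed to 12.1 ± 6.972 CPM, with Acta1, Myh1, Myh2, Myh4, Tnni2, Myl1 and Mb at 0 in all. Central glia genes summed to 1.916 ± 2.531 CPM, with Opalin, Mog, Aqp4 and Olig2 at 0 in all. That sum was 0.4815 CPM without control 1 and 2.874 CPM without control 3. Erythroid genes summed to 10.28 ± 4.97 CPM, mostly Alas2, and the globin gene Hbb-bs (Hbb-b1 in the table) had 1 count in each library. Keratinocyte genes were at 21.81 ± 11.28 CPM, of which Krt10 gave 95.84%. Krt10 overlaps Gm11940, which had no count, Alas2 overlaps Apex2, at 9, 9 and 6, and the muscle gene Atp2a1 overlaps Rabep2, at 24, 34 and 38. Members without a partner summed to 0 CPM for keratinocytes, 1.246 CPM for erythroid cells and 1.229 CPM for muscle. Over the 14 lists of other cell types, fibroblasts included, 25 of 127 markers exceeded the floor in each library and 52 had no count in any. These shares are near those of all entries, 19.64% and 47.9%, so they say nothing particular about the markers.

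**Figure D2:**
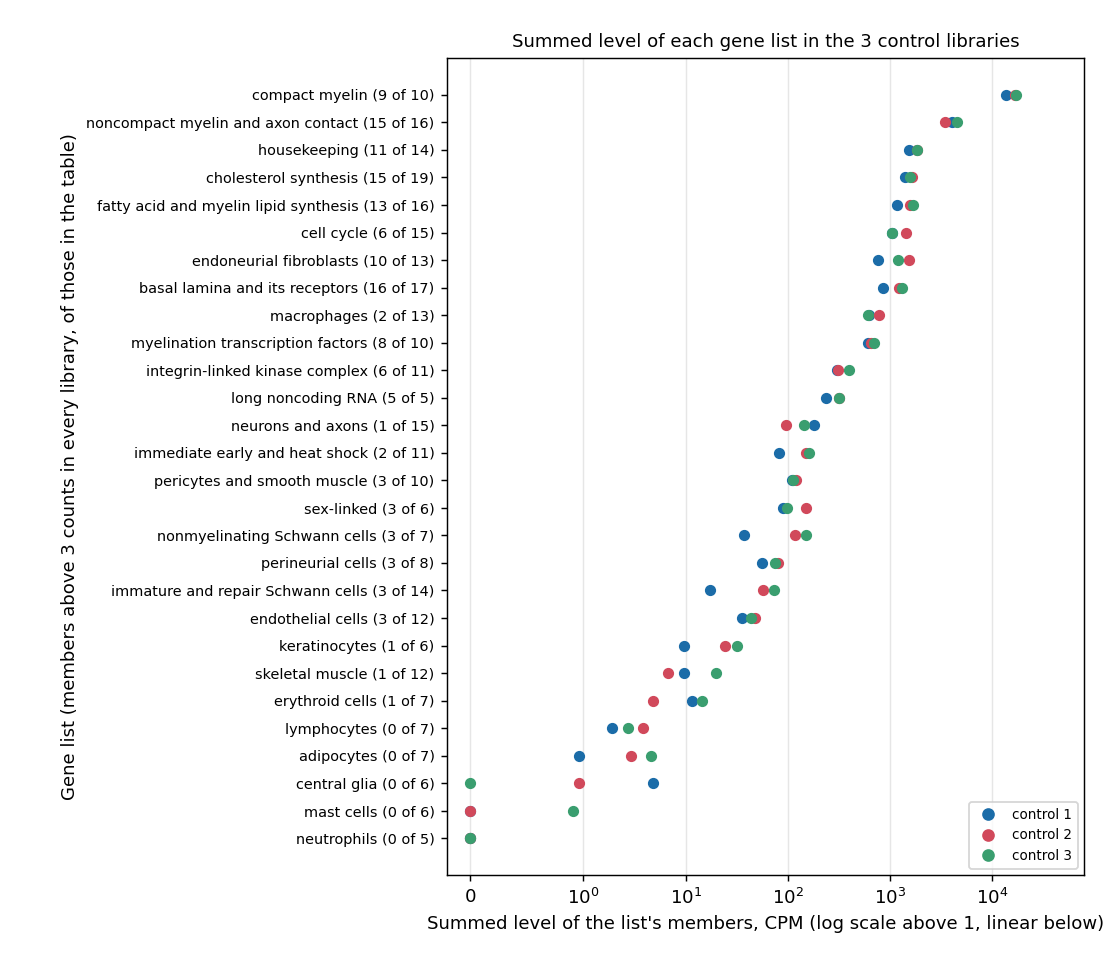
Summed CPM of each gene list apart from the mitochondrial, respiratory chain and ribosomal protein lists (horizontal axis, logarithmic above 1 CPM and linear below) in control 1, 2 and 3, ordered by mean; 1 point is 1 library, points at the same value cover each other, and the label gives how many members exceeded 3 counts in each library. Among the lists shown, compact myelin genes are highest at 15792.6 CPM on average, and neutrophil genes are at 0 in all 3 libraries.

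Lists outside the cell types gave a mixed picture. Proliferation genes summed to 1169.7 ± 221.3 CPM, but 57.87% of this was Kif20a, a mitotic kinesin, with 553, 917 and 681 counts, which overlaps Cdc23 at 39, 212 and 120. Ccne2, Ccna2 and Ccnd1, which encode cyclins, all have partners too, and without partnered members the list stood at 36.7 CPM. Mki67, a marker of cycling cells with no partner, had 27, 15 and 30 counts, and Ccnb1, Ccnb2, Bub1 and Mcm5 had none. These are 4 of 15 members, against 47.9% of all entries without a count, so they say nothing particular about proliferation genes. Of immediate early genes, which rise when tissue is handled, Junb, Fosb, Ier2 and Egr1 were at 0 in all libraries and Fos at 0, 0 and 1. In their list, which also holds heat shock genes, 4 of 11 members had no count in any library. Among all entries 47.9% had none, so these zeros say nothing particular about handling. Of heat shock genes in the same list, the constitutive Hspa8 had 57, 83 and 118 counts.

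Genes used as stable references were uneven. The 14 housekeeping entries summed to 1734.7 ± 185.1 CPM, and 38.08% of this was Tbp, encoding the TATA-binding protein, at 661, 787 and 651 counts. Tbp overlaps Pdcd2, which had 30, 32 and 25. Eef1a1, a translation elongation factor with no partner, had 267, 359 and 431 counts, Actb 72, 104 and 97, and Gapdh, a glycolytic enzyme, 12, 4 and 26. Per kilobase, Eef1a1 stood at 132.7 CPM per kb, Tbp at 48.66, Actb at 32 and Gapdh at 3.142. Cytosolic ribosomal protein genes were counted broadly, with 73 of 83 above the floor in each library and a sum of 2759.3 ± 152.0 CPM. Nuclear genes of the respiratory chain had 33 of 79 above it, and among all entries 19.64% exceeded it. Of the sex-linked genes, Xist had 23, 25 and 9 counts and Tsix, which is transcribed across Xist on the other strand, 64, 126 and 88. Eif2s3y, on the Y chromosome, had 5, 5 and 8 counts, and the labels state that each pool held both sexes. Tsix exceeded Xist in each library.

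Turning from lists to the highest entries, the largest counts in control nerve stood under names that mostly overlap another gene. Entries with a partner held 88.58%, 87.37% and 85.66% of the counts, although they made up 24.82% of the entries. Of the 100 entries with the highest mean CPM, 92 had a partner, and 21 were annotated as antisense genes, against 5.869% of all entries. The 100 took 53.27%, 50.4% and 50.45% of the counts. When the overlap had to cover at least 50% of the shorter span, 37.67% of the counts and 39 of the 100 entries had a partner. The partner was the lower of the pair in all but 2 of the 92, by a median ratio of 63.56, and in 75 the ratio of entry to partner was 10 or more. In 63 of the 92 the entry and its highest partner overlapped at their ends (convergent genes), in 24 one lay within the other, and in 5 they overlapped at their starts.

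**Figure D3:**
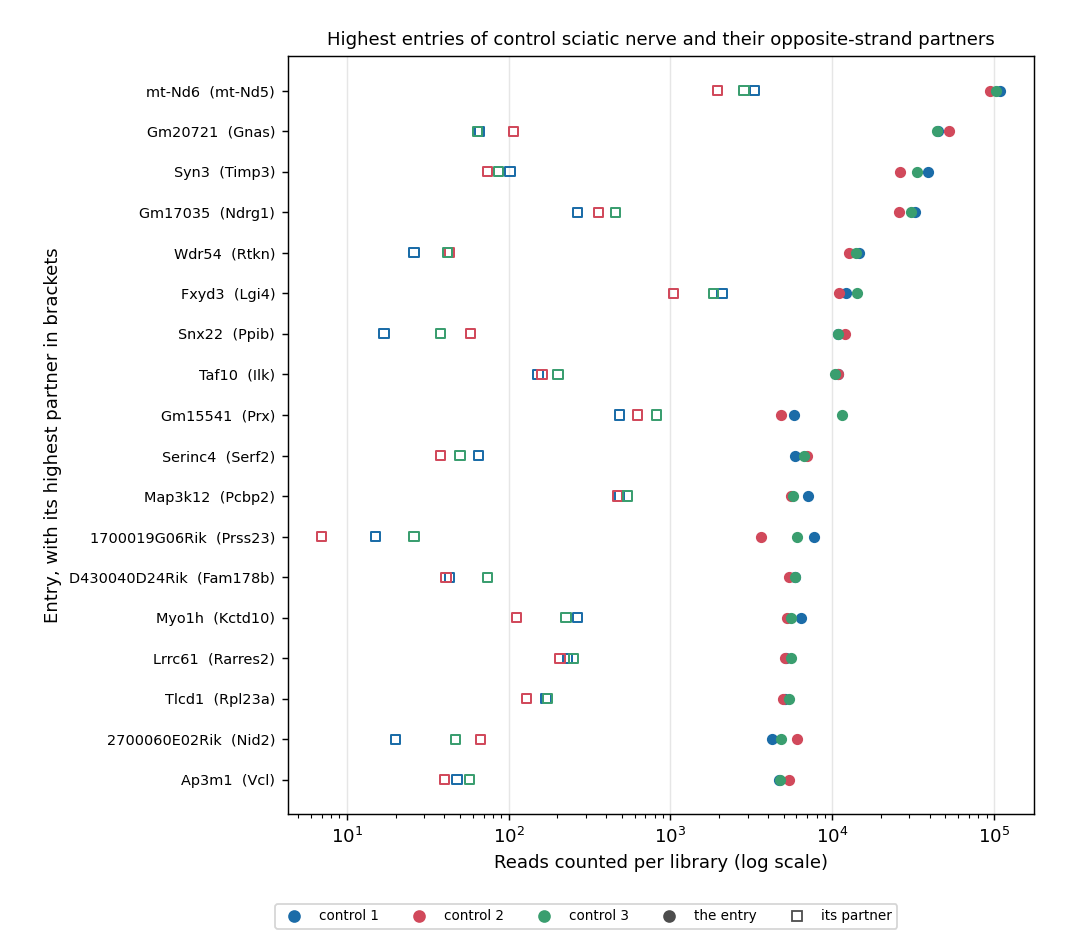
Reads counted (horizontal axis, log scale) for 18 of the 20 highest entries by mean CPM (filled circles) and for the highest opposite-strand partner of each, named in brackets (open squares), in control 1, 2 and 3. In all 18 pairs shown the partner lies below the entry in each library.

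Several of the overlapped genes are themselves genes of Schwann cell biology. Within the 20 highest entries, those over a Schwann cell or adhesion gene of the lists included Fxyd3 over Lgi4, Taf10 over Ilk, Gm15541 over Prx, 2700060E02Rik over Nid2 and Ap3m1 over Vcl. Gm12927 over Cldn19 followed at rank 94, and the highest 100 held 7 such entries in all. A further 4 of the 100 were members of those lists under their own name. The lists held 34 partnered members, among 6444 partnered entries in all, and were chosen with earlier results of these data known. These counts are therefore only a description of the highest entries.

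After the mitochondrial entry described below, Gm20721 was the highest, with 44897, 52552 and 44402 counts. It lies within Gnas, which encodes the stimulatory G protein alpha subunit and had 66, 107 and 64 counts. Gm17035, an antisense gene of 0.419 kb, had 32542, 25715 and 30811 counts over Ndrg1, a Schwann cell protein gene in which loss causes a human demyelinating neuropathy, at 268, 359 and 457. Per kilobase Gm17035 was second of all entries, at 66743.9 CPM per kb. Wdr54, a WD-repeat protein, had 14611, 12667 and 14000 counts over Rtkn at 26, 43 and 42. Snx22, a sorting nexin, had 10850, 11973 and 10808 counts over Ppib, a cyclophilin of the endoplasmic reticulum, at 17, 58 and 38. In each of these pairs every library of the entry lay above every library of the partner.

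Most other entries of the highest 20 had a lower partner too. Serinc4 lay over Serf2, Map3k12 over Pcbp2, 1700019G06Rik over the protease gene Prss23, D430040D24Rik over Fam178b, Myo1h over Kctd10, Lrrc61 over Rarres2 and Tlcd1 over Rpl23a. Syn3, a synapsin gene, overlaps Timp3. Lrrc61 and Tlcd1 had the smallest spreads of the 20, with 5192, 5092 and 5558 and 5108, 4929 and 5411 counts. Gm15541 over Prx had the largest, 44.86% of its mean, with control 3 standing above the other libraries, and 1700019G06Rik followed with 7691, 3624 and 6031 counts. Between 2.697% and 100% of the exon length of the 19 partnered entries in the highest 20 lay on exons of the partner, with a median of 28.54%.

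The order within most pairs was the same from pool to pool. In 1289 pairs at least 1 entry reached a mean of 50 counts, and in 1252 of them (97.13%) the same entry was the higher in all 3 libraries. Per kilobase of exon this held for 96.87% of the 1246 pairs with a known length. The ratio was 10 or more in 844 pairs (65.48%), and in 88 the lower entry had no count in any library. Both entries reached a mean of 50 counts in 302 pairs. Where the ratio is large the order could hardly change, and the 302 pairs were not summarised apart. Among the 34 partnered genes of the Schwann cell and adhesion lists, 18 were lower than their highest partner in each library and 11 were higher in each.

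Entries without a partner show what could be counted with no overlapping name in the table. Among the 10 highest were the compact myelin genes Pmp22 and Mbp, and Pter, mt-Cytb, mt-Co1, Pla2g4b, mt-Nd4, Gm5148 and 4930429F24Rik. Pter, a phosphotriesterase-related gene, had 3690, 3864 and 3452 counts and lies 4 bp from C1ql3 on the opposite strand, whose mean was 45.33 counts. Pla2g4b, a phospholipase gene, had 3468, 1271 and 2789 counts and lies 30 bp from Gm13999, at a mean of 359 counts. In the annotation it also overlaps Sptbn5 on the opposite strand, which the table lists as Spnb5 in several spans that do not reach it, the nearest with a mean of 3.667 counts. 4930429F24Rik, a long intergenic noncoding RNA with 1299, 1494 and 1510 counts, lies 134 bp from Tmem30a, at 41.33. Within the Mbp span the annotation places Rpl21-ps8, and within that of Gm5148 it places Rps23-ps1, both pseudogenes on the opposite strand that are no entries of the table. A lack of a partner in the table is thus not a lack of any neighbour on the other strand.

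The mitochondrial genome showed both the highest entry and the largest differences between pools. It encodes 13 proteins of the respiratory chain, of which 12 are on the plus strand and mt-Nd6 alone is on the minus strand. The mitochondrial entries took 11.92%, 10.09% and 11.53% of the counts. mt-Nd6, a subunit of complex I (positions 13552 to 14070 of the mitochondrial chromosome), had 109016, 94108 and 102738 counts, or 96096.2 ± 7272.3 CPM. mt-Nd5, its only partner, had 3317, 1951 and 2849. The 12 plus-strand genes together therefore lay far below mt-Nd6 in each library.

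The overlap behind that pair is short, as the 3′ ends of the 2 genes show. They are printed 5′ to 3′ on each gene's own strand, from GENCODE M21 transcripts (GRCm38), with the shared bases in capitals: the final 60 bases of mt-Nd5 (chrM:13506-13565, plus strand) and the final 60 of mt-Nd6 (chrM:13552-13611, minus strand).
mt-Nd5: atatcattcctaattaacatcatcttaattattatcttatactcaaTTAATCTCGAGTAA
mt-Nd6: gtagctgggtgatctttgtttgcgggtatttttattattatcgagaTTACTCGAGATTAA
The 14 shared bases are 2.7% of the 519 bases of mt-Nd6 and 0.77% of the 1824 of mt-Nd5. The 2 runs are reverse complements of each other.

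A run of neighbouring plus-strand genes differed strongly between the pools. In mt-Co2, mt-Atp8, mt-Atp6, mt-Co3, mt-Nd3 and mt-Nd4l, which follow each other from position 7013 to 10173 and encode subunits of cytochrome c oxidase, ATP synthase and complex I, control 2 was lowest and control 3 highest for each gene. Their summed counts were 1976, 109 and 7806, or 1891.4, 105 and 7089.8 CPM, which is 67.54 times as much in control 3 as in control 2. mt-Co2 had 274, 4 and 1373 counts, mt-Atp6 577, 7 and 2304, mt-Co3 613, 23 and 2344, and mt-Atp8 122, 0 and 464. The other 6 plus-strand genes summed to 13545, 10598 and 16410 counts, 1.46 times as much in control 3 as in control 2, and mt-Nd6 differed by 1.03 times. On either side of the run, mt-Co1 had 2234, 2241 and 3981 counts and mt-Nd4 2102, 1263 and 3534, so control 3 was highest there too. By contrast mt-Nd2 and mt-Nd5 were highest in control 1. The 6 entries of the run were picked out after their values were seen, as the stretch in which the pools part most.

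mt-Atp8 and mt-Atp6 share bases on the same strand, so reads there can belong to either gene. The shared stretch is shown because both genes belong to the run that differed. The final 60 bases of mt-Atp8 (chrM:7910-7969, plus strand) and the initial 60 of mt-Atp6 (chrM:7927-7986, plus strand) have 43 bases in common, in capitals.
mt-Atp8: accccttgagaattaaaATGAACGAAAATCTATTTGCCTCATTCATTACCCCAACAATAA
mt-Atp6: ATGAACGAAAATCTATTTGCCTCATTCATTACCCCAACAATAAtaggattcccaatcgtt
Both entries were lowest in control 2 and highest in control 3, as were mt-Co2 and mt-Co3 on either side of them.

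**Figure D4:**
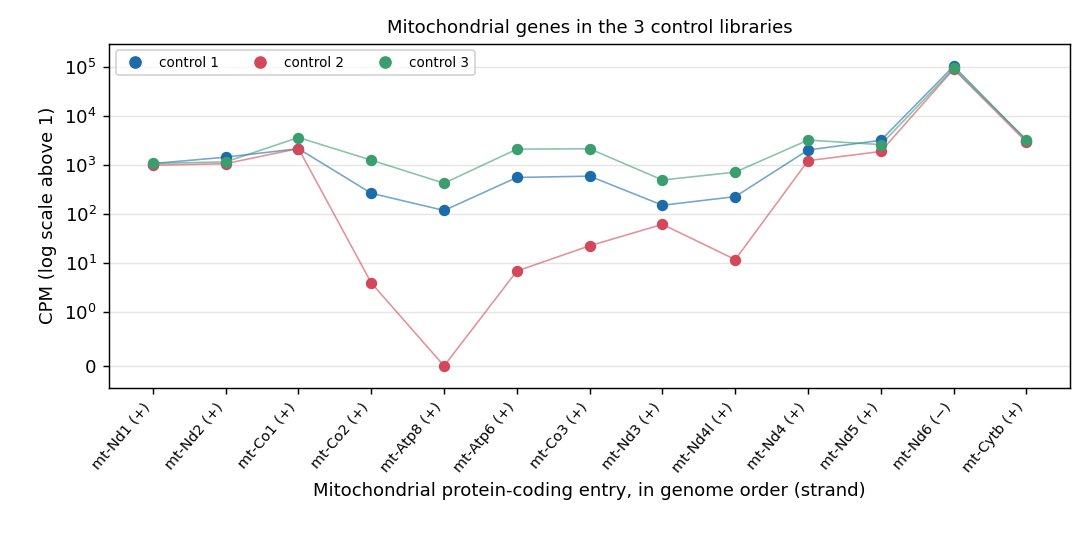
CPM (vertical axis, logarithmic above 1) of the 13 mitochondrial protein-coding entries in genome order, with the strand in brackets, in control 1, 2 and 3; lines join the points of a library. The lines part most between mt-Co2 and mt-Nd4l, where control 2 is at 105 CPM in sum and control 3 at 7089.8. They part less at mt-Co1 and mt-Nd4 and meet at mt-Nd6 and mt-Cytb.

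Spread between the pools was summarised for the 1645 entries with a mean of at least 50 counts, as the coefficient of variation (CV, SD as a percentage of the mean CPM). The median CV was 14.53% (quartiles 8.344% and 23.44%), where counting alone would give 7.857%. It was 20.84% for means of 50 to 100 counts and 8.956% for 500 or more. Entries without a partner had a larger median CV, 21.47% (n = 369), than entries with one, 13.14% (n = 1276). The same order held in each range of mean counts: 24.3% and 18.79% at 50 to 100, 18% and 13.73% at 100 to 200, 20.15% and 12.8% at 200 to 500, and 13.73% and 8.802% above. In 50.41% of the entries without a partner control 1 was the lowest library, and in 43.36% control 3 was the highest. Their median log2 ratio to the mean in control 1 was -0.11 with library totals, 0.039 with TMM scaling and 0.025 with RLE scaling, so its sign changed with the scaling.

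The 10 largest CVs included the 6 mitochondrial genes of the run, from 97.09% for mt-Nd3 to 130.1% for mt-Co2. The other entries were 2310008H04Rik, with 130, 11 and 16 counts, Exosc9 over the cyclin gene Ccna2, with 24, 150 and 58, Gm4793 over Nav1, with 42, 22 and 123, and Gm17494 over Gclm, with 1050, 118 and 799. Control 1 was the highest library for 2310008H04Rik and Gm17494, control 2 for Exosc9 and control 3 for Gm4793. The 10 smallest CVs were C530005A16Rik, Gm16119, Gm10135, Gm15674, Cpe, Gm9783, 1500002C15Rik, Mrpl24, Mlst8 and Pmpca, with C530005A16Rik at 420, 417 and 442 counts and Pmpca, a mitochondrial processing peptidase gene, at 434, 425 and 446. Their CVs, 0.07487% to 1.269%, were below the counting error of each, 3.957% to 13.4%. With 3 values per entry, such closeness is a description of these libraries.

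Of the markers, Pmp22 varied least between pools, with a CV of 5.189%, then Mbp at 21.2% and Prx at 23.55%. Counting error alone was 1.435% to 3.943% for these 3 genes, so their spread was larger than counting. Fdft1 (7.732%), Cnp (6.569%) and Scd2 (9.562%) were also even, while Col1a1 (46.67%), Egr2 (50.05%) and Scn7a (66.06%) were not. Over all 1645 entries, 52 had a CV above 50% and 151 one below 5%.

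**Figure D5:**
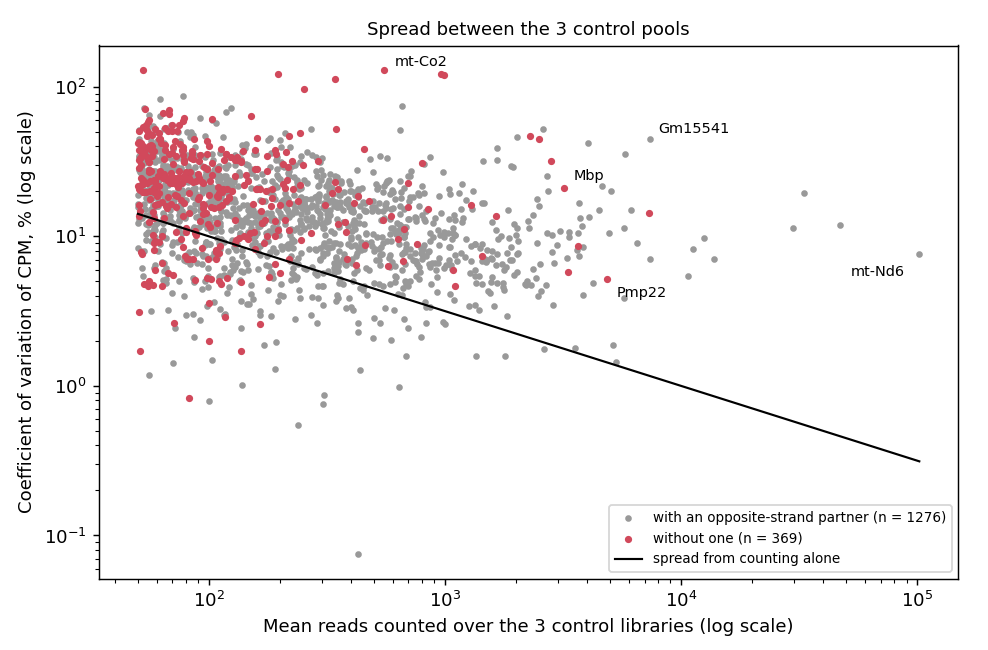
Coefficient of variation of CPM over the 3 control libraries (vertical axis, log scale) against the mean reads counted (horizontal axis, log scale) for the 1645 entries with a mean of at least 50 counts; grey points have an opposite-strand partner, red points have none, and the line is the spread that counting alone gives. Most points lie above the line, and mt-Co2 lies highest at 130.1%.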

How the data were processed

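TruSeq libraries of total RNA were sequenced for 3 control pools of sciatic nerve, per the labels' protocols. HISAT2 2.0.5 and the GRCm38 build, with Trim Galore 0.4.2 and with cutadapt 1.9.1, are named in the submitters' processing notes. The deposited table, made by the authors, holds raw whole-number counts per gene entry. The sources used here name no counting tool, annotation release or strandedness of the kit. These points decide which strand a count belongs to, and none could be checked here.

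CPM, ranks, CVs, list sums and partners were computed from the control columns with Python 3.11.15 and pandas 2.3.3, tested on simulated data. There was 1 group, so no statistical test was made, and SDs measure the spread between 3 pools. Entries were matched by identifier to GENCODE M21 (96.42% found), which gave exon lengths, joined over all annotated transcripts of a gene. Of the matched entries, 58.92% had the same span in both. Levels per kilobase and exon overlaps thus rest on gene models that can differ from those counted. Other scalings used TMM in edgeR 4.0.16 and RLE size factors in DESeq2 1.42.0 (R 4.3.3).

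The members and lists were chosen with earlier results of these data known. Named by rule were the markers, Lims1, Lims2, the 20 highest entries, the 10 highest without a partner, the 10 largest and smallest CVs and, per list, the 5 highest members, those at 0 and the one with the highest partner. Some genes under that rule are not reported here. Other named genes were chosen after their values were seen: Cd9, Pmp2, Cldn11, Cntn2, Cldn19, Gm12927, Nefh, Pecam1, Cdh5, Lyz2, Mki67, Fos, Gapdh, Actb and Gpr17 among them. Of 10 listed long noncoding RNAs, 5 were matched by name.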

Additional observations from a re-analysis of the deposited data

How the results depend on the processing

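The share of counts on entries with an opposite-strand partner, 87.2% on average, was 84.15% when exons had to overlap and 37.67% when the overlap had to cover at least 50% of the shorter span. With that last rule 39 of the 100 highest entries had a partner, in place of 92; with the highest 50 or 500, exon overlap, no mitochondrial entries or a rank per kilobase the share was 85% to 94%. The 5099 entries above 3 counts in each library became 7978 with at least 1 count, 3362 with at least 10, and 5444 to 5960 with a library left out. The median CV of 14.53% was 16.07% with TMM, 15.8% with RLE and 10.86% to 12.79% with a library left out, and it reached 71.29% with no minimum count. The share of pairs with the same entry higher in every library, 97.13%, was 97.75% to 98.53% with a library left out, since fewer libraries have to match. Of 31 list sums, 20 moved by more than the SD between libraries when only members without a partner were kept. None did with TMM or RLE, but the factors lay near 1 (0.902, 1.037 and 1.07 for TMM), so a mean over the libraries could hardly move. The order of the libraries did change in some lists. The integrin-linked kinase sum was lowest in control 1 with library totals and in control 2 with TMM and RLE. Taking the 20 highest entries out of the total raised each sum above 0 by nearly the same factor. The 22 lists that moved by that SD under it were thus those with a small SD relative to their mean. Leaving a library out cannot move a mean of 3 values by their SD, so no list could move under that setting. By ratio, central glia (1.916 CPM) moved to 0.4815 without control 1 and 2.874 without control 3, and mast cells (0.3028 CPM) to 0 without control 3. The pair alternatives and the CV without mitochondrial entries (14.45%) were chosen after seeing the data. No paired analysis was possible because the control libraries form 1 group with no test.

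Detection ends at about 3 counts per library in these data. Low values are uneven: odd numbers made up 83.16% to 84.66% of values between 1 and 4 and 49.11% to 51.56% of values over 50. The part of the odd values in the results was not tested.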

Other observations

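Long noncoding RNAs were counted in control nerve with moderate spread. H19, an imprinted growth-related RNA of young tissue, had 76, 156 and 141 counts, and Neat1, the scaffold of nuclear paraspeckles, had 104, 93 and 126. Malat1, a nuclear RNA that is among the most abundant in many tissues, had 24, 22 and 26 counts, below the 379, 432 and 458 of Gm20417, which lies within its span on the other strand. Meg3 had 24, 39 and 36 counts and no partner.

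Some entries stood out by name. Myh6, the cardiac alpha myosin heavy chain gene, had 605, 543 and 569 counts with no partner in the table, while the 12 skeletal muscle genes together were at 12.1 CPM. The annotation places Gm49130 on the opposite strand within the Myh6 span and Mhrt 1751 bp from it. Cmtm5, a member of the compact myelin list, lies 2647 bp from Myh6 on the opposite strand, with a mean of 17 counts. Sparc, a matrix glycoprotein gene without a partner, had 685, 868 and 975 counts. Oraov1, with 2754, 5842 and 3449 counts, overlaps the end of Ccnd1, the cyclin D1 gene, at 128, 105 and 100. Cpe, a neuropeptide-processing enzyme gene with no partner, had nearly equal levels in the 3 pools, at 82, 81 and 85 counts. These genes were chosen after their values were seen.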
